A study of Macaca fascicularis with 23 samples.

Results

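Solute carriers are membrane proteins that move nutrients, metabolites, metals and inorganic ions across cell and organelle membranes, and their genes carry the symbol SLC followed by a family number. They were followed here in livers of the cynomolgus monkey, Macaca fascicularis, during dosing with ciprofibrate, a lipid-lowering fibrate and agonist of PPAR-alpha. A probe set was a member if the array annotation gave it 1 gene with an SLC symbol and if its mean intensity over all 23 arrays was at least 40. The probe sets of SLC22A5, SLC25A20, SLC27A2, SLC27A5 and SLC10A1 were left out by the same rule. This gave 118 probe sets for 103 genes in 40 families, out of 12625 probe sets on the array. Members were thus chosen by annotated symbol and by mean intensity over all animals, so their brightness is only described. The rule itself used no difference between groups, but it was set with earlier results of these data known. Just inside the limit lay SLC34A1 at 40.2, SLC2A2 at 40.5 and a probe set of SLC6A2 at 40.8, and just outside it SLC1A2 (31323_r_at) at 39.4, SLC15A1 at 38.3 and SLC15A2 at 37.8. A further 60 SLC probe sets fell under the limit in all.

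Each array held liver RNA of 1 animal. At 4 days there were 2 animals on vehicle and 2 on ciprofibrate at 400 mg/kg/day. At 15 days there were 3 animals on vehicle and 4 at each of 3, 30, 150 and 400 mg/kg/day. No source used here gave the strain, sex or age of the animals or named the vehicle. No other drug or allele was named for any group. The probes were designed for human transcripts, so a mismatch with the monkey sequence can dim a probe set, and intensities were compared within a probe set only.

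In liver, carriers of the plasma membrane bring amino acids, sugars, vitamins, nucleosides and metals into hepatocytes and release others into blood. Carriers of the SLC25 family exchange metabolites across the inner mitochondrial membrane, and carriers of the endoplasmic reticulum and Golgi move glucose 6-phosphate and nucleotide sugars. PPAR-alpha is best known for switching on genes of fatty acid oxidation and ketone body synthesis. Several carriers of fatty acids and carnitine are among its known targets, and the genes that the rule left out include carriers of this kind.

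All arrays had a trimmed mean intensity of 150.1, and their medians lay between 55 and 71.6. The mean correlation of an array with the others of its group ran from 0.846 to 0.921, the lowest being replicate 4 at 30 mg/kg/day, and no 2 arrays held identical values. Of the hepatocyte markers, 11 of 11 were measured, and between the 400 mg/kg/day and vehicle animals of day 15 CYP3A4 rose by 1.31 and CYP2E1 fell by 3.56 on the log2 scale, both drug-metabolising enzymes. The other 9 were not called, albumin at 0.00, and the median of the 11 was 0.00. Endothelial markers (8 of 12 measured, none called) had a median log2 difference of -0.49 in that comparison, Kupffer cell and macrophage markers (9 of 11, none called) -0.33 and stellate cell markers (6 of 11, with 1 called lower) -0.39. Over all probe sets tested the median was -0.03, and 2.14% were called, 1.26% higher and 0.876% lower. The ratio of 5′ to 3′ actin signal, a sign of RNA integrity, was 0.748 to 0.988 in vehicle animals and 1.02 to 1.21 in treated animals at 4 days, so that these groups did not overlap. The same ratio of GAPDH was 0.947 to 0.993 and 0.974 to 1.17 in these groups, which overlapped. At 15 days the actin ratio was 0.540 to 0.606 with vehicle, 0.561 to 0.979 at 3 mg/kg/day and 0.552 to 0.839 at 400 mg/kg/day, and that of GAPDH was 0.721 to 1.31, 1.16 to 1.55 and 0.964 to 1.25. The part of these ratios in any difference was not tested. In bulk tissue, fewer cells of a type and less RNA per cell cannot be told apart.

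Few carriers were called, at shares no higher than that of the whole array when both directions are counted. Of the 118 probe sets, 105 (93 genes) were bright enough for the fit, in which differences are between group means of log2(intensity + 16) and a call is an adjusted p under 0.05 in limma over all 7535 probe sets tested. Against vehicle at 15 days, 400 mg/kg/day gave 1 call among the 105 members, a fall of the ascorbate carrier SLC23A2. That is 0.952% of the members, where 2.14% of all probe sets tested were called, 1.26% higher and 0.876% lower. No member was called at 150 mg/kg/day, where 0.677% of all probe sets were, nor at 30 mg/kg/day (0.0133% of all), at 3 mg/kg/day (0% of all) or after 4 days at 400 mg/kg/day (0.292% of all). At an unadjusted p under 0.05, the members numbered 11, 8, 12, 16 and 8 in these 5 comparisons, or 10.5%, 7.62%, 11.4%, 15.2% and 7.62% of the 105. The shares of all probe sets at that level were 12.5%, 11.3%, 9.82%, 10.0% and 7.63%.

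The 4 dose groups at 15 days were set against the same 3 vehicle animals, so these comparisons are not independent of each other. The slope over the 5 dose steps from vehicle to 400 mg/kg/day, taken as equally spaced, was called for 2 members, SLC29A1 rising and SLC30A1 falling. That is 1.90% of members beside 3.11% of all probe sets (1.79% rising and 1.31% falling), and at an unadjusted p under 0.05 it is 11.4% beside 13.9%. The contrast of 400 with 3 mg/kg/day, which does not use the vehicle animals, gave most of the calls, with 1 member higher (SLC3A2) and 3 lower (SLC30A1, SLC39A14 and SLC11A2). These 4 are 3.81% of the members, where 4.18% of all probe sets were called, 145 of them higher (1.92%) and 170 lower (2.26%). At an unadjusted p under 0.05 the shares were 16.2% and 17.2%, and the groups did not overlap for 9.52% of members and 11.2% of all probe sets. After scaling each array to the same median, that split over all probe sets was 159 higher and 118 lower, the median of all probe sets moved from 0.01 to 0.07, and the same 4 members were called. The difference between the 15-day and the 4-day effect of 400 mg/kg/day was called for no member and for no other probe set (0% in limma). At an unadjusted p under 0.05 it held 3 members, 2.86%, beside 3.37% of all probe sets.

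The middle of the members lay close to that of the whole array. Their median log2 difference between the 400 mg/kg/day and the vehicle animals of day 15 was -0.06 beside -0.03 for all probe sets tested, and for 400 against 3 mg/kg/day 0.03 beside 0.01. At 400 mg/kg/day the members ran from -1.57 for the sodium-calcium exchanger SLC8A2 to 1.17 for the potassium-chloride cotransporter SLC12A4 (39521_at), neither of them called. Differences over 1 in size occurred for 4 members, 3.81%, and for 4.72% of all probe sets. The treated and vehicle animals did not overlap for 12 members, 6 higher and 6 lower, or 11.4% beside 13.2% of all probe sets, of which 6.72% were higher and 6.53% lower. The median standard error (SE) of a member's difference was 0.32 at 400 mg/kg/day.

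**Figure D1:**
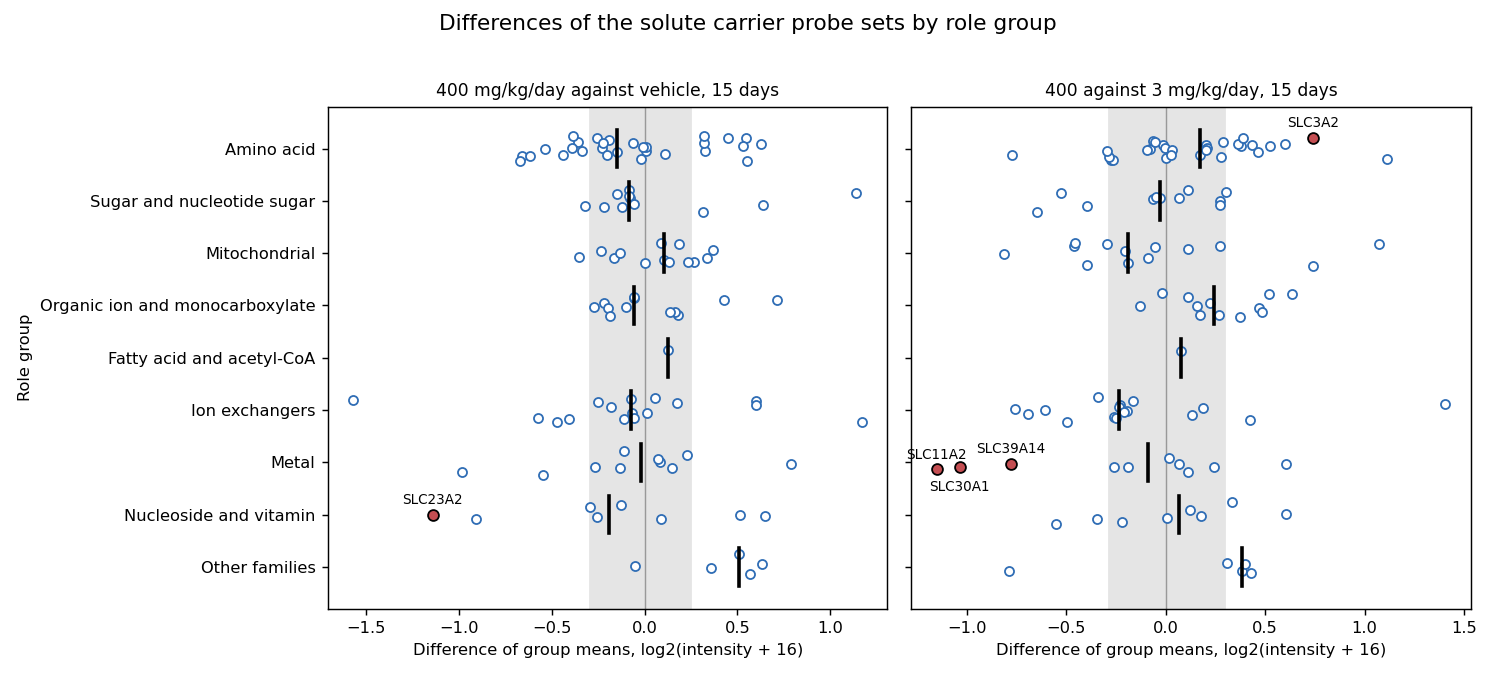
The horizontal axis of each panel is the difference of group means in log2(intensity + 16), at 15 days, for 400 mg/kg/day against vehicle (left) and against 3 mg/kg/day (right), and each point is 1 of the 105 member probe sets, placed by role group with random height within its line. Filled red points were called at an adjusted p under 0.05, black bars are the medians of the groups, and the grey band spans the quartiles of all 7535 probe sets. One member, SLC23A2, stands as called on the left, and on the right SLC3A2 and the metal carriers SLC11A2, SLC30A1 and SLC39A14.

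Carriers of metals held 3 of the 4 calls in 400 against 3 mg/kg/day. SLC30A1 exports zinc from cells, SLC39A14 brings zinc and iron that is not bound to transferrin into hepatocytes, and SLC11A2 is a carrier of ferrous iron. All 3 were lower at 400 than at 3 mg/kg/day, among 10 metal carriers in the fit. Of all probe sets 4.18% were called in this contrast, 2.26% lower, and so small a group was described only by its counts. In it, the other 7 metal carriers, each with 1 probe set in the fit, had differences from -0.26 to 0.60 with no call. No metal carrier was called against vehicle at any dose.

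SLC30A1 (34759_at) had intensities of 3055, 2446, 1691 and 2438 at 3 mg/kg/day and of 1309, 967, 1334 and 1007 at 400 mg/kg/day. The groups did not overlap, and the fall was -1.03 ± 0.19 (SE) on the log2 scale, a factor of 2.05 (limma, adjusted p = 0.00195). Vehicle animals at 15 days lay between, at 1493, 2065 and 1531, so that the 3 mg/kg/day group stood 0.49 above them (adjusted p = 0.437) and the 400 mg/kg/day group differed from them by -0.55 (adjusted p = 0.214). The means of the 30 and 150 mg/kg/day groups, 1738 ± 358 and 1533 ± 298 (SD, n = 4 each), lay close to that of vehicle, 1697 ± 320 (n = 3). The slope over dose was -0.17 ± 0.04 per step (limma, adjusted p = 0.0322). At 4 days the vehicle animals had 1717 and 1816 and the treated animals 1021 and 814, a difference of -0.94 ± 0.27 that did not pass the test (adjusted p = 0.170). The call against 3 mg/kg/day was kept with any of the 8 animals left out, from -1.19 to -0.91. The slope lost its call without vehicle replicate 2 (adjusted p = 0.151) or 3 (0.0505), without replicate 4 at 150 mg/kg/day (0.0510) and without replicate 2 (0.0850) or 4 (0.0802) at 400 mg/kg/day. It also lost it with no filter on dim probe sets (0.0505), with arrays scaled to the same median (0.130) and with no intensity trend (0.0814).

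SLC39A14 (38797_at) had 1964, 1547, 1150 and 1774 at 3 mg/kg/day and 836, 857, 815 and 1195 at 400 mg/kg/day. The highest animal at 400 mg/kg/day, replicate 4, was above the lowest at 3 mg/kg/day, replicate 3, so the groups overlapped by this pair. The fall was -0.78 ± 0.17, a factor of 1.71 (limma, adjusted p = 0.00855), and it was called with any 1 animal left out. Vehicle animals at 15 days had 922, 1108 and 944, below all 4 animals at 3 mg/kg/day, a difference of 0.67 ± 0.19 that did not pass the test (adjusted p = 0.216). Against vehicle, 400 mg/kg/day differed by -0.11, with a 95% interval from -0.49 to 0.27. Means at 15 days ran in the order 3 (1609 ± 350), 30 (1329 ± 246), 150 (1286 ± 153), vehicle (991 ± 102) and 400 mg/kg/day (926 ± 180), and the SDs of each neighbouring pair except 150 mg/kg/day and vehicle overlapped.

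SLC11A2 (35320_at) was dimmer, with 231, 197, 120.5 and 129 at 3 mg/kg/day and 53.5, 90.0, 65.0 and 55.9 at 400 mg/kg/day, and these groups did not overlap. The fall was -1.15 ± 0.32 (limma, adjusted p = 0.0409). Vehicle animals at 15 days, at 146, 172 and 118, also lay above all 4 animals at 400 mg/kg/day, with a difference of -0.98 ± 0.35 (adjusted p = 0.176). At 4 days the treated animals, 186 and 64.1, spanned the vehicle animals, 90.1 and 170. The call is close to the threshold and was lost without replicate 1, 2 or 4 at 3 mg/kg/day (adjusted p = 0.129, 0.0990 and 0.0514) and without replicate 1, 3 or 4 at 400 mg/kg/day (0.107, 0.0884 and 0.0979). A pseudocount of 64 (0.0502), quantile normalization (0.0501) and no filter (0.0597) also ended it.

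Some markers of liver cell types were called for 400 against 3 mg/kg/day. None of the endothelial, stellate cell, cholangiocyte, red cell, neutrophil or T and NK cell markers was called. Their medians were, in that order, -0.25, -0.33, 0.15, 0.15, 0.14 and 0.44. Of 9 Kupffer cell and macrophage markers measured, CD14 and MARCO fell between 3 and 400 mg/kg/day and 7 were not called, from CD5L at -0.67 to AIF1 at 0.49, with a median of -0.24. The summed intensity of the 9 was 4173 to 6192 at 3 mg/kg/day and 2828 to 3722 at 400 mg/kg/day, of which CD14 alone held a mean of 3227 and 1851. Of 11 hepatocyte markers, CYP3A4 rose by 1.57, while CYP2E1 fell by 3.88, APOB by 1.34 and HP by 1.09, and the median was -0.17. Of all probe sets, 1.92% were called higher and 2.26% lower. The hepatocyte sum was 102350 to 139740 at 3 mg/kg/day and 70804 to 86876 at 400 mg/kg/day. In it the mean of CYP2E1 went from 17277 to 1479, that of SERPINA1 from 29095 to 20561 and that of APOB from 12366 to 4953. APOA1 went from 21424 to 15272 and albumin from 24005 to 23610. CYP3A4, TTR and TAT had higher means at 400 than at 3 mg/kg/day. The part of any of these cell types in the metal carriers was not tested. SLC11A1, the metal carrier of macrophage phagosomes, differed by 0.02 in the same contrast (38597_f_at, a probe set whose name marks possible cross-hybridisation within a gene family).

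Of the remaining metal carriers, SLC31A1, the copper uptake carrier, was dim. It had 15.5, 62.3 and 28.2 in vehicle animals at 15 days and 93.8, 52.5, 37.8 and 99.3 at 400 mg/kg/day, and the groups overlapped. Its differences from vehicle were 0.68 to 0.85 over the 4 doses, none of them called. SLC31A2, SLC30A3, SLC30A9, SLC39A6 and SLC39A8 had differences from -0.27 to 0.23 at 400 mg/kg/day.

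**Figure D2:**
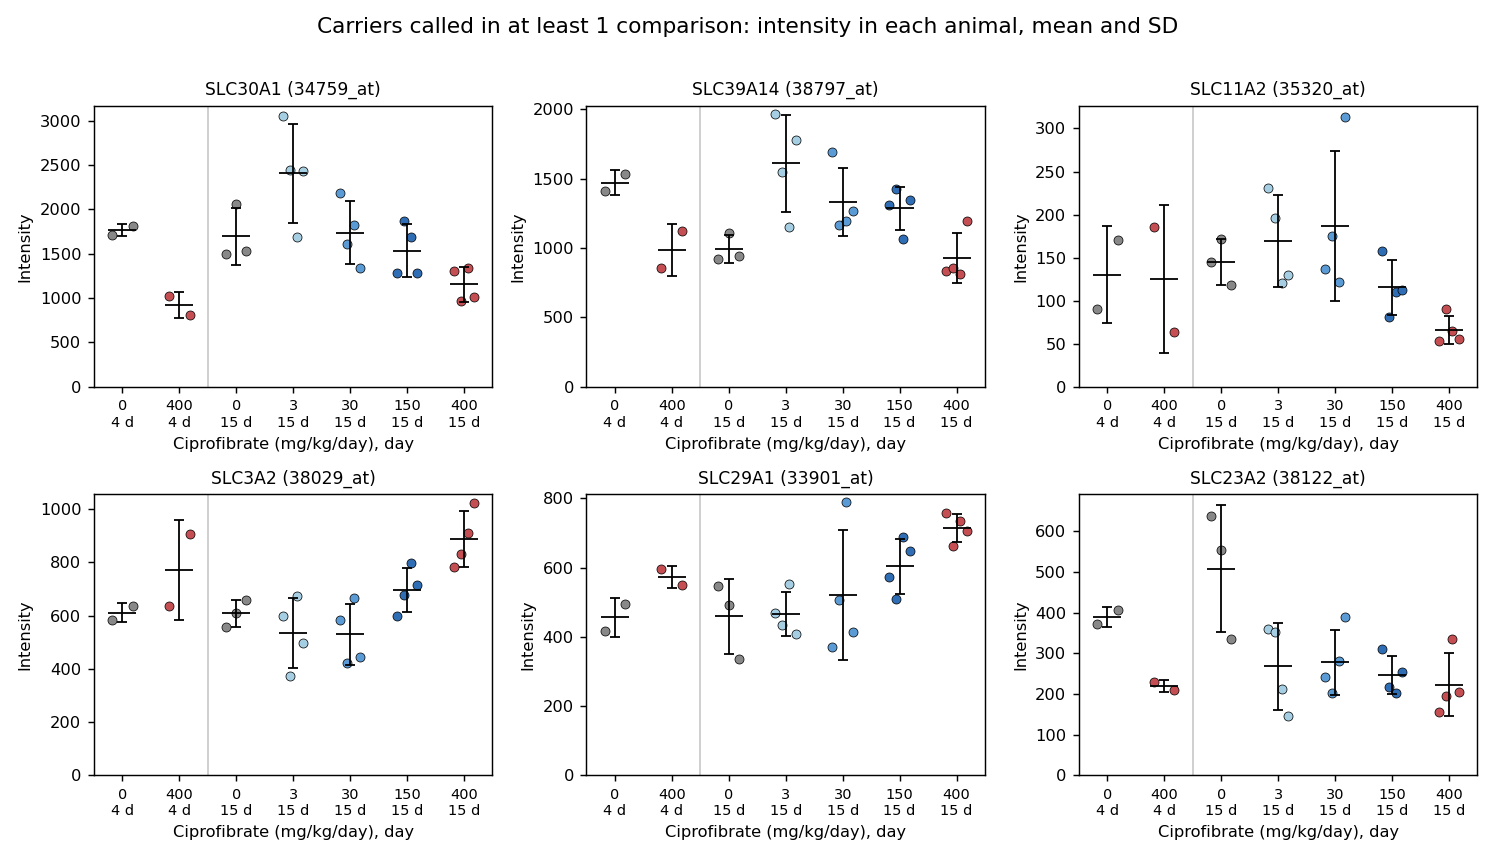
Each point is the intensity of 1 animal on a linear axis from 0, with the horizontal bar at the group mean and the whiskers at 1 SD; groups run from vehicle (0) and 400 mg/kg/day at 4 days to vehicle, 3, 30, 150 and 400 mg/kg/day at 15 days. SLC30A1, SLC39A14 and SLC11A2 are highest at 3 or 30 mg/kg/day and lowest at 400 mg/kg/day among the 15-day groups, SLC3A2 and SLC29A1 are highest at 400 mg/kg/day, and SLC23A2 is highest in the vehicle animals.

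The role group named for nucleosides, vitamins, choline and urea held 8 genes, of the SLC14, SLC19, SLC23, SLC29, SLC46 and SLC49 families. At 400 mg/kg/day against vehicle 1 was called lower and none higher, where 0.876% of all probe sets were called lower and 1.26% higher. SLC23A2 takes up ascorbate, the reduced form of vitamin C, together with sodium. Its probe set (38122_at) read 638.5, 553 and 335 in the vehicle animals at 15 days and 156, 194, 334 and 206 at 400 mg/kg/day. All treated animals were below all vehicle animals, though replicate 3 of each group, at 335 and 334, nearly met. The fall was -1.14 ± 0.30, a factor of 2.2 (limma, adjusted p = 0.0410). Animals at 3 mg/kg/day had 361, 353, 212 and 146, and the differences at 3, 30 and 150 mg/kg/day were -0.92, -0.82 and -0.97, none of them called (adjusted p = 0.285, 0.400 and 0.158). Between 400 and 3 mg/kg/day it differed by -0.22, with a 95% interval from -0.78 to 0.35. At 4 days the vehicle animals had 371 and 407 and the treated animals 230 and 209.8, a difference of -0.78 ± 0.39 (adjusted p = 0.675). The fall at 400 mg/kg/day lost its call without vehicle replicate 1 or 2 (adjusted p = 0.230 and 0.153) and without treated replicate 1, 2 or 4 (0.141, 0.0970 and 0.0924), at values from -1.12 to -0.96. No filter (0.0622), scaling to the same median (0.0782) and no intensity trend (0.0732) also ended the call.

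SLC29A1, a nucleoside carrier that works by facilitated diffusion, rose with dose. It read 546, 493 and 337 in vehicle animals, 470, 435, 554 and 409 at 3 mg/kg/day, 372, 506.5, 789 and 415 at 30 mg/kg/day, 573, 509, 688 and 648 at 150 mg/kg/day and 757, 662, 734 and 707 at 400 mg/kg/day. All animals at 400 mg/kg/day were above all vehicle animals. The slope was 0.17 ± 0.05 per dose step (limma, adjusted p = 0.0464), and the difference at 400 mg/kg/day, 0.65 ± 0.21, did not pass the test (adjusted p = 0.121). The slope was called in 6 of the 19 fits that left out 1 animal, and without vehicle replicate 3, the lowest of its group, it was 0.13 (adjusted p = 0.209). No filter (0.0753), quantile normalization (0.0706) and no intensity trend (0.0927) also ended this call.

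Among the other 6 genes of this group, SLC19A2, a thiamine carrier, had 111, 97.6 and 88.3 in vehicle animals at 15 days but 19 and 20 in those at 4 days. After 15 days at 400 mg/kg/day it had 30.0, 91.5, 47.3 and 28.4, and its difference of -0.91 was not called (adjusted p = 0.414). SLC29A2, a second nucleoside carrier, named here after its values were seen, had -1.07 at 150 mg/kg/day with no overlap (adjusted p = 0.11) and -0.29 at 400 mg/kg/day. SLC46A3, SLC19A1, SLC14A2 and SLC49A3 ran from -0.26 to 0.51 at 400 mg/kg/day.

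The amino acid families held most members, with 33 probe sets for 27 genes, of which 29 were in the fit. They include, by family, carriers of neurotransmitters such as SLC6A2 for noradrenaline and SLC6A4 for serotonin. Against vehicle at 400 mg/kg/day 11 were above 0 and 18 below, with a median of -0.15 and no call. Against 3 mg/kg/day the median was 0.17, and SLC3A2 was the 1 call.

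SLC3A2 encodes the heavy chain that brings several light-chain amino acid exchangers of the SLC7 family to the plasma membrane. It read 597, 373, 672.5 and 495 at 3 mg/kg/day and 783.5, 832, 909 and 1023 at 400 mg/kg/day, with no overlap. The rise was 0.74 ± 0.18, a factor of 1.67 (limma, adjusted p = 0.0173). Vehicle animals had 557, 609 and 660, also below all animals at 400 mg/kg/day, and that difference of 0.53 ± 0.19 was not called (adjusted p = 0.205). At 4 days, vehicle animals had 585 and 635 and treated animals 637 and 905. Without replicate 2 at 3 mg/kg/day the rise was 0.58 (adjusted p = 0.0714), and without replicate 4 at 400 mg/kg/day 0.67 (adjusted p = 0.0610).

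Its light-chain partners were not called in any comparison. SLC7A5, an exchanger of large neutral amino acids, had 102, 83.7 and 99.2 in vehicle animals and 80.9, 81.1, 78.8 and 41.5 at 400 mg/kg/day, so it lay below vehicle where SLC3A2 lay above. Its difference was -0.39 against vehicle and 0.46 against 3 mg/kg/day. SLC7A11, the cystine and glutamate exchanger, had -0.23 and 0.36, SLC7A8 -0.39 and 0.39, and SLC7A6 -0.62 and -0.29. SLC7A5, SLC7A6 and SLC7A8 are named here as partners, after their values were seen.

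SLC1A2, a glutamate carrier, read 531.5, 437 and 972 in vehicle animals and 374, 368, 567 and 265 at 400 mg/kg/day, a difference of -0.66 with a 95% interval from -1.39 to 0.07 (34582_at, adjusted p = 0.465). SLC43A1, a carrier of neutral amino acids, was -0.54 at 400 and -0.72 at 30 mg/kg/day, in the latter with no overlap, and neither was called. The 2 probe sets of SLC7A2, a carrier of cationic amino acids, disagreed at 400 mg/kg/day, at 0.62 (38169_s_at) and -0.02 (40236_at), neither called. The largest uncalled contrast of 400 with 3 mg/kg/day in this group was 1.11 for the glutamine carrier SLC1A5 (adjusted p = 0.13), named after its values were seen. It had 44.5, 32.8, 44.9 and 18.4 at 3 mg/kg/day and 75, 70.3, 80.1 and 163 at 400 mg/kg/day.

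Mitochondrial carriers of the SLC25 family, 14 probe sets for 11 genes with 13 in the fit, had no call in any comparison. Their median at 400 mg/kg/day was 0.10, with a range from -0.35 to 0.37, and 9 of 13 were above 0. SLC25A1 exports citrate from mitochondria to the cytosol, where it feeds fatty acid and sterol synthesis. Its 3 probe sets were each lowest at 150 mg/kg/day among the 15-day groups. On 39825_at the animals had 528, 667 and 519 with vehicle, 370.0, 265, 321 and 305 at 150 mg/kg/day and 608, 558, 521 and 368 at 400 mg/kg/day. The 150 mg/kg/day group lay wholly below vehicle, and the 400 mg/kg/day group spread across it. The differences at 150 mg/kg/day were -0.83 ± 0.24 (39825_at, adjusted p = 0.134), -0.81 ± 0.21 (38998_g_at, adjusted p = 0.0953) and -0.48 ± 0.25 (38997_at, adjusted p = 0.472). At 400 mg/kg/day they were -0.16, -0.35 and 0.27.

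SLC25A5 and SLC25A4 exchange ADP and ATP across the inner membrane. SLC25A5 (37740_r_at) had 1008, 915, 955 and 573 at 3 mg/kg/day and 1782, 1971, 1803 and 1632 at 400 mg/kg/day, with no overlap, and the difference of 1.07 ± 0.31 just missed the threshold (adjusted p = 0.0505). Vehicle animals, at 799, 2033 and 1755, spanned both groups. The contrast with 3 mg/kg/day was called for SLC25A5 with a pseudocount of 64, with quantile normalization and with array weights. It was called in none of the fits that left out 1 animal. SLC25A4 was -0.20 in the same contrast and 0.13 against vehicle, with a 95% interval from -0.41 to 0.67.

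SLC25A13, the aspartate and glutamate exchanger of liver, had 80.8, 108 and 90.0 in vehicle animals on 38329_at. At 3 mg/kg/day it had 162, 182, 177 and 238, at 30 mg/kg/day 215, 221, 182 and 142, at 150 mg/kg/day 115, 222, 136 and 110.3 and at 400 mg/kg/day 152, 87.1, 108 and 69.6. The groups at 3, 30 and 150 mg/kg/day each lay wholly above vehicle, and that at 400 mg/kg/day did not. None of the differences, 0.91, 0.91, 0.53 and 0.10, was called, nor was the difference of -0.81 between 400 and 3 mg/kg/day (adjusted p = 0.0653). The other probe set, 38328_at, gave 0.22, 0.51, 0.12 and -0.24 at the 4 doses.

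SLC25A42, which carries coenzyme A into mitochondria, had 0.65 ± 0.18 at 150 mg/kg/day (adjusted p = 0.121) and 0.37 at 400 mg/kg/day, both with no overlap with vehicle. SLC25A11, the malate and 2-oxoglutarate exchanger, had 0.23, with a 95% interval from -0.17 to 0.64. SLC25A3, the phosphate carrier, SLC25A16, SLC25A44 and SLC25A46 lay between -0.13 and 0.19 at 400 mg/kg/day.

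**Figure D3:**
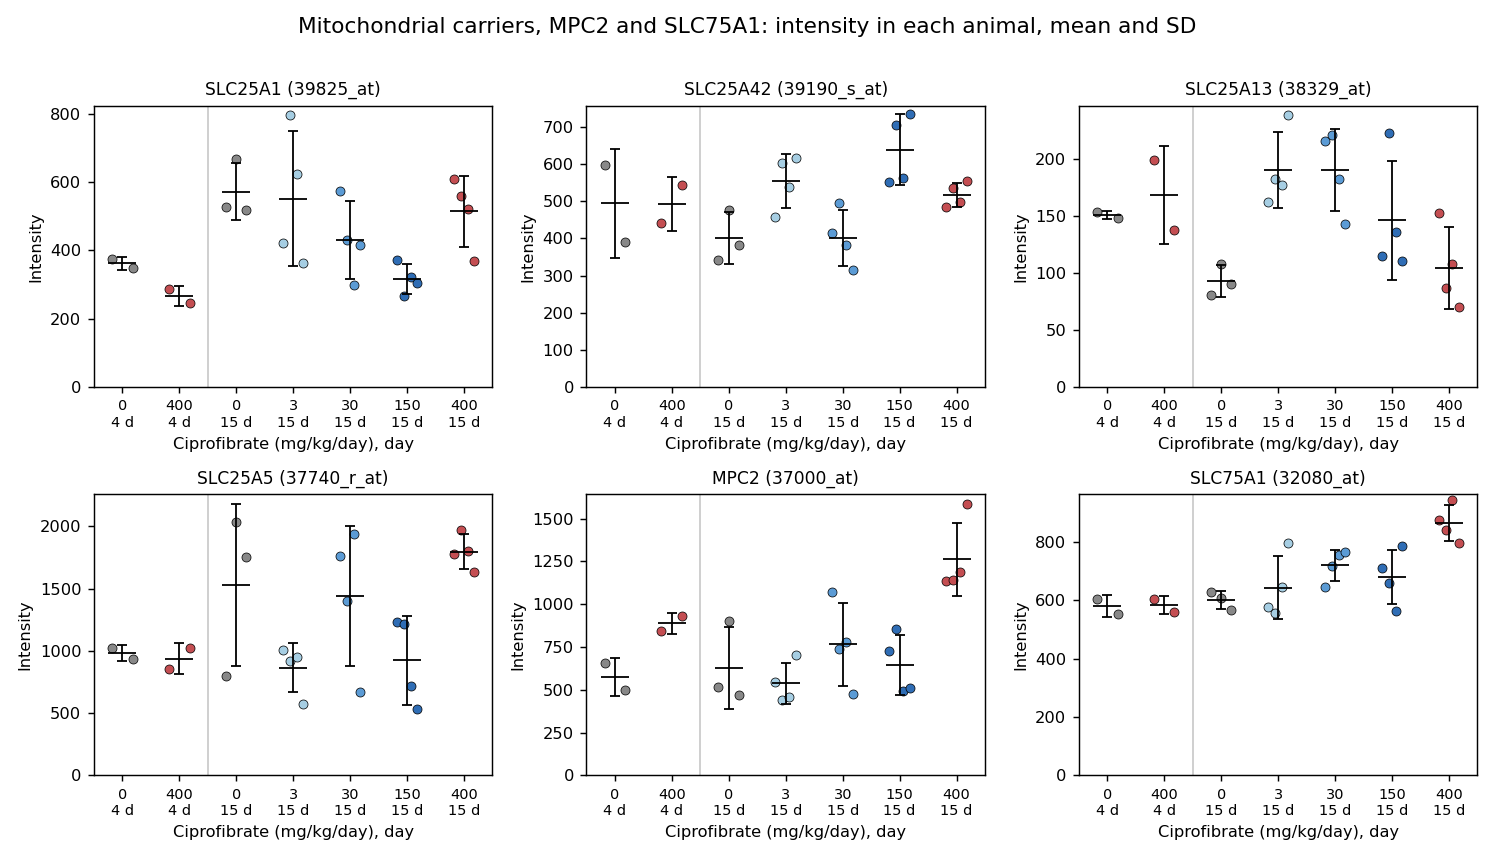
Intensity of each animal (points, linear axis from 0), group mean (bar) and SD (whiskers) in the 7 dose and day groups, for 4 mitochondrial carriers of the SLC25 family, the pyruvate carrier subunit MPC2 and SLC75A1. SLC25A1 is lowest at 150 mg/kg/day among the 15-day groups, SLC25A13 is above vehicle at 3 and 30 mg/kg/day and back near it at 400 mg/kg/day, and SLC25A5, MPC2 and SLC75A1 have their highest 15-day mean at 400 mg/kg/day.

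Other mitochondrial and plasma membrane transport proteins without an SLC symbol were counted from lists chosen with earlier results of these data known. Of ion pumps and partners of carriers, 21 of 41 were measured, and MPC2, a subunit of the mitochondrial pyruvate carrier, was the 1 gene called. Of all probe sets, 2.14% were called at 400 mg/kg/day against vehicle on day 15, 3.11% for the slope and 4.18% for 400 against 3 mg/kg/day. MPC2 read 547, 439, 460 and 703 at 3 mg/kg/day, 516, 903 and 468.5 with vehicle and 1135, 1139, 1191 and 1583 at 400 mg/kg/day. The highest group did not overlap with either. The rise was 1.22 ± 0.24 against 3 mg/kg/day (limma, adjusted p = 0.00320) and 1.03 ± 0.26 against vehicle (adjusted p = 0.0321), and the slope was 0.23 per step (adjusted p = 0.0208). Against vehicle the call was lost without vehicle replicate 1 or 3 (adjusted p = 0.163 and 0.165) and without treated replicate 1, 3 or 4 (0.0556, 0.0598 and 0.105), as well as with no filter (0.0509) or no intensity trend (0.0732). The slope lost it without vehicle replicate 1 or 3 (0.0988 and 0.103) without treated replicate 4 (0.0620) and with no intensity trend (0.0504), and the contrast with 3 mg/kg/day kept it throughout. Of the organic anion carriers of the SLCO families and the ABC transporters, 16 of 38 were measured and none was called in any comparison, with a median of 0.09 at 400 mg/kg/day.

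Sugar and nucleotide sugar carriers, 14 genes with 11 in the fit, had no call and a median of -0.08 at 400 mg/kg/day. SLC37A4, the carrier that brings glucose 6-phosphate into the endoplasmic reticulum for the last step of glucose release, read 1630, 1772 and 2323 in vehicle animals and 1363, 1135, 2481 and 2821 at 400 mg/kg/day. The treated animals lay on both sides of the vehicle animals. The difference was -0.06, with a 95% interval from -0.62 to 0.51. SLC2A2, the main glucose carrier of hepatocytes, was too dim for the fit. It had 9.60, 71.9 and 47.9 with vehicle, 109, 65.6, 69.3 and 93.5 at 30 mg/kg/day, 9.70, 6.80, 16.8 and 11.1 at 150 mg/kg/day and 3.90, 9.80, 45.4 and 37.1 at 400 mg/kg/day, and no test was made on it. Without the 30 mg/kg/day animals its mean, 40.5 over all arrays, would lie under the limit of 40. The height of that group is therefore part of how SLC2A2 was chosen. SLC2A1, the glucose carrier of red cells and many other cells, had -0.32, with a 95% interval from -0.88 to 0.24.

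The SLC35 family, counted here as nucleotide sugar carriers by family and not gene by gene, showed 1 large uncalled value. SLC35B1 had 10.9, 52.5 and 56.5 with vehicle and 131.5, 55.1, 87.1 and 133 at 400 mg/kg/day, a difference of 1.14 ± 0.51 (adjusted p = 0.345). It was 0.62 to 0.88 at the other 3 doses and 0.94 at 4 days, and no group at 15 days was clear of the vehicle animals. SLC35A3 had 0.31. The remaining 7 genes, SLC2A3, SLC5A2, SLC5A3, SLC5A4, SLC5A6, SLC35A1 and SLC35A2, had values from -0.22 to 0.64. They include SLC5A6, which by its family is counted here but carries vitamins.

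The role group named for organic ions, monocarboxylates, dicarboxylates and peptides, 14 probe sets for 12 genes with 12 in the fit, had no call. Its members were of the SLC10, SLC13, SLC16, SLC17, SLC18 and SLC22 families. The peptide carriers SLC15A1 and SLC15A2 fell under the limit of intensity and were not tested. The median of the group was -0.06 against vehicle and 0.24 against 3 mg/kg/day, where 10 of 12 were above 0. These include all 3 probe sets of 1 gene, SLC16A5, at 0.11 to 0.52. Of all 7535 probe sets, 3831 were above 0 in that contrast. SLC13A2, a dicarboxylate and citrate carrier, read 352, 235 and 236 with vehicle and 443, 308.5, 255 and 258 at 400 mg/kg/day, a difference of 0.18 with a 95% interval from -0.28 to 0.64. The 3 probe sets of SLC16A5, of the monocarboxylate carrier family, gave 0.43, -0.28 and -0.22 at 400 mg/kg/day. SLC10A3 had 0.71 ± 0.54. The other members, of the SLC17, SLC18 and SLC22 families, lay between -0.20 and 0.17. The single carrier of acetyl-CoA, SLC33A1, which moves it into the endoplasmic reticulum, had 76.9, 289 and 293 with vehicle and 237, 173, 173 and 270.1 at 400 mg/kg/day. Its difference was 0.13, with a 95% interval from -0.52 to 0.78, and without vehicle replicate 1 it was -0.45, not called either.

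Exchangers of ions, bicarbonate and protons, 18 probe sets for 15 genes with 16 in the fit, held the ends of the range but no call. SLC8A2 had 92.9, 95 and 117 in vehicle animals at 15 days and 33.1, 19.8, 23.4 and 19.2 at 400 mg/kg/day, with no overlap and a difference of -1.57 ± 0.55 (adjusted p = 0.176). Vehicle animals at 4 days had 27.2 and 22.9, near the treated animals. SLC12A4 was measured by 2 probe sets in the fit. On 39521_at the animals had 196.5, 62.3 and 30.5 with vehicle and 198, 177, 206 and 183 at 400 mg/kg/day, a difference of 1.17 ± 0.58 (adjusted p = 0.420), and on 38624_at the difference was 0.60 ± 0.27 (adjusted p = 0.339). SLC24A1, which exchanges sodium for calcium and potassium, had 256, 204 and 284 with vehicle and 164, 169, 180 and 178.5 at 400 mg/kg/day, with no overlap, a difference of -0.47 ± 0.22 (adjusted p = 0.381). The remaining 12 probe sets, among them the bicarbonate carriers SLC4A1, SLC4A2, SLC4A3, SLC4A4 and SLC4A8, lay between -0.57 and 0.60. One of them, SLC26A10P at -0.57, carries the symbol of a pseudogene and is counted here by its family.

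A further 6 probe sets (5 in the fit) carried SLC symbols of families outside these roles, SLC61, SLC67 and SLC75, and are named here after their values were seen. SLC75A1 (32080_at) came nearest to a call against vehicle. It read 629, 609 and 567 with vehicle, 577, 556, 647 and 797 at 3 mg/kg/day and 876, 843, 944 and 796 at 400 mg/kg/day. The treated animals lay above all vehicle animals, and the difference was 0.51 ± 0.15 (adjusted p = 0.0741). SLC67A1 had 1414 and 1262 with vehicle and 2008 and 2268 with treatment at 4 days, a difference of 0.67 (adjusted p = 0.25), and 0.36 at 15 days (adjusted p = 0.33). SLC61A1 (40935_at) had 282, 412, 454 and 314 at 3 mg/kg/day and 245, 135, 260 and 189 at 400 mg/kg/day, with no overlap and a difference of -0.79 (adjusted p = 0.076). SLC67A2 and the antisense transcript SLC67A1-AS had 0.63 and 0.57 against vehicle, not called.

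At 4 days, with 2 animals a group, the 105 members had a median of -0.06 beside -0.05 for all probe sets, and 46 members did not overlap between groups, 43.8% beside 42.0% of all probe sets. The smallest adjusted p was that of SLC30A1, given above. After 15 days at 3, 30 and 150 mg/kg/day the members' medians were 0.01, 0.01 and -0.01. At 3 mg/kg/day 12 members did not overlap with vehicle (11.4%, beside 8.91% of all), at 30 mg/kg/day 7 (6.67%, beside 8.07%) and at 150 mg/kg/day 11 (10.5%, beside 10.1%).

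**Figure D4:**
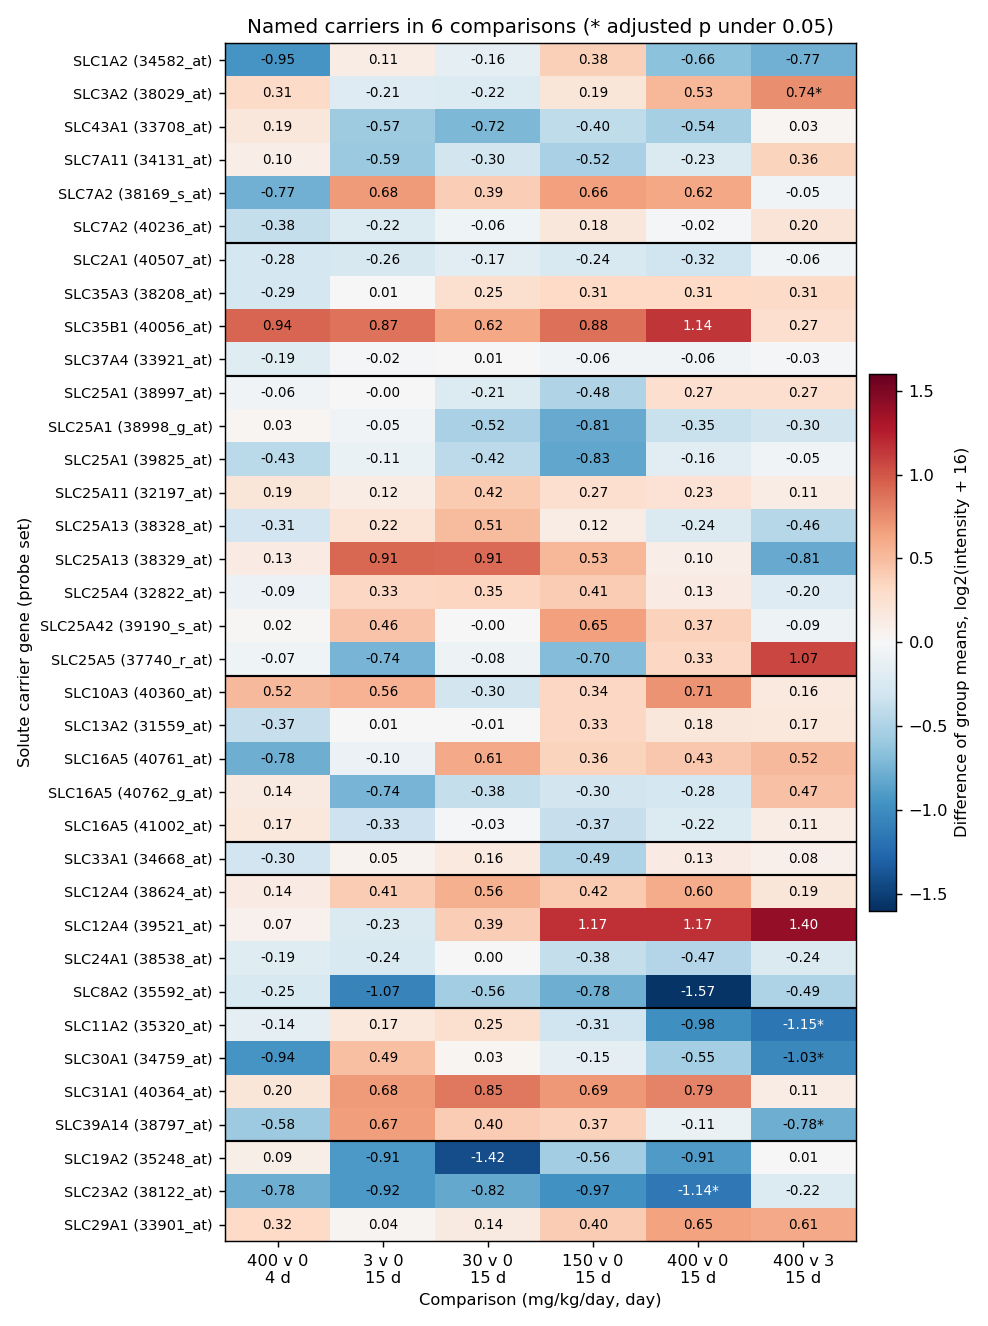
Each line is a named member probe set, ordered by role with black lines between roles, and each column a comparison at 4 or 15 days; colour and printed value are the difference of group means in log2(intensity + 16), red for higher and blue for lower in the first-named group. Asterisks mark an adjusted p under 0.05, which stand at SLC23A2 for 400 mg/kg/day against vehicle and at SLC3A2, SLC11A2, SLC30A1 and SLC39A14 for 400 against 3 mg/kg/day.

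Members also differed in how much animals of 1 group varied. The SD within groups had a median of 0.39 on the log2 scale over the 105 members and of 0.44 over all probe sets tested. It was smallest for SLC75A1 (0.15), SLC6A7 (34166_at, 0.16) and SLC30A3 (0.17) and largest for SLC35A2 (0.94), SLC4A1 (0.89) and SLC5A4 (0.87). Of 10 genes with several probe sets in the fit, 4 had the same sign on all of them at 400 mg/kg/day and 6 did not, namely SLC16A5, SLC25A1, SLC25A13, SLC6A7, SLC6A8 and SLC7A2.

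The 13 members below the filter of the fit had means from 40.2 to 46.4 and were not tested. They are SLC2A2, SLC6A12, SLC6A13, SLC7A1, SLC13A3, SLC18A1, SLC25A36, SLC34A1, SLC35D1, SLC35D2 and probe sets of SLC6A2, SLC12A4 and SLC61A1. SLC6A12, a carrier of betaine, had 92.0 and 197 in vehicle animals at 4 days and 67.6, 21.6 and 16.9 in those at 15 days. Without the vehicle animals at 4 days its mean would lie under 40. Their height is therefore part of how it was chosen, and its values are only described. After 15 days at 400 mg/kg/day it had 29.0, 17.4, 34.1 and 23.2.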

How the data were processed

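Liver RNA of 23 monkeys was measured on 1 array each. The authors deposited linear-scale intensity values per probe set, made with MAS5 according to the submitters' processing notes, which give neither version nor settings here. Gene names come from the array annotation (10961 probe sets naming 1 gene) and can differ from those of other sources. Its SLC61, SLC67 and SLC75 symbols are recent ones for genes that older sources list under other names. Samples were grouped by labelled dose and day. Values were used as deposited, as log2 after a pseudocount of 16. The 67 control probe sets were left out, and of the rest those whose log2 mean reached the 40th percentile (5.80, an intensity of 39.7) were tested, 7535 in all. A model with 1 mean for each of 7 groups was fitted to all arrays in limma 3.58.1 (R 4.3.3; intensity trend, 16 residual and 6.63 prior degrees of freedom). P-values are two-sided and carry Benjamini-Hochberg adjustment across the 7535. The fit was tested on simulated data. The number of arrays limits the precision.

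The named genes are the members called in any of 8 contrasts, the up to 3 genes of each of 8 roles with the smallest p at 400 mg/kg/day against vehicle on day 15, and those on a list of liver carriers, besides called genes of both lists of other transport proteins. Members, roles and lists were chosen with earlier results of these data known. Alternatives were the pseudocount, the filter, normalization, the trend, array weights, the replicate number as a block and leaving out each animal. Animals with the same number in different groups are different animals, and their deviations correlated between -0.037 and 0.017, so the numbers pair nothing. Sequences, promoters and genome positions were not used here. Liver carriers of the list that are not members were not analysed here.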

Additional observations from a re-analysis of the deposited data

Results flagged for a closer look

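In 9 of 164 groups of 4 animals tested among the named carriers, SLC75A1 and MPC2, 1 animal lay far from the other 3, with a gap above Dixon's 95% critical value. Chance alone marks about 1 group in 20. At 30 mg/kg/day these were SLC13A2 in replicate 4 at 428 (others 215 to 242), SLC31A1 in replicate 2 at 100.1 (59.5 to 65.2) and SLC16A5 (41002_at) in replicate 3 at 460 (198 to 209). At 3 mg/kg/day they were SLC1A2 in replicate 4 at 954 (552 to 603) and SLC10A3 in replicate 3 at 359 (177 to 195). At 150 mg/kg/day SLC25A1 (38997_at) was low in replicate 3, at 166 (264 to 288.5).

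After 15 days at 400 mg/kg/day SLC25A11 was high in replicate 3 at 374 (297 to 309). SLC39A14 was high in replicate 4 at 1195 (815 to 857), which is the animal that overlaps with the 3 mg/kg/day group, and its fall against that group was called with and without this animal. MPC2 was high in the same replicate at 1583 (1135 to 1191), and without it the rise against vehicle was 0.92 (adjusted p = 0.105).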

How the results depend on the processing

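Against the 1 member called at 400 mg/kg/day and 15 days, there were 0 with no filter on dim probe sets, 0 with no intensity trend, 3 with array weights and 0 with the replicate number as a block; leaving out 1 animal gave 0 to 1. After scaling to the same median the 1 call was SLC75A1 in place of SLC23A2. At 4 days array weights gave 1 call (SLC30A1) in place of 0. Of the 2 slopes, no filter, no trend and the replicate block each gave 0, quantile normalization 1 and array weights 5, and leaving out 1 animal 0 to 3. Against 3 mg/kg/day the 4 calls became 3 to 6 over the 8 alternatives, 4 with the replicate block (SLC25A5 in place of SLC11A2), and 2 to 4 with 1 animal left out, the 2 without replicate 2 at 3 mg/kg/day or replicate 4 at 400 mg/kg/day. SLC30A1, SLC39A14 and SLC3A2 were called in all 8 of these alternatives, SLC11A2 in 4. Besides the replicate block, SLC25A5 was called with a pseudocount of 64, quantile normalization and array weights. The counts at 3, 30 and 150 mg/kg/day and for the difference between days were 0 in every fit.

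Of 46 named differences, 9 changed sign in at least 1 refit, 16 refits in all; none of the 9 was called in the report's fit or in those refits, and all were at 400 mg/kg/day against vehicle. With 1 animal of day 15 left out the ranges were SLC33A1 -0.45 to 0.42, SLC25A5 -0.0745 to 0.59, SLC35A3 -0.0277 to 0.52, SLC25A1 (38997_at) -0.0338 to 0.53, SLC16A5 (40761_at) -0.0226 to 0.85, SLC7A2 (40236_at) -0.26 to 0.28, SLC37A4 -0.27 to 0.17, SLC25A4 -0.0839 to 0.30 and SLC25A13 (38329_at) -0.0736 to 0.25. SLC33A1 was -0.15 with array weights, SLC37A4 0.0536 and SLC7A2 0.0849 with the same median, and SLC7A2 0.0471 with the replicate block. The cause was not tested. Of the other refits, 654 kept direction and side of the threshold, 58 lost a call and 3 gained one, SLC29A1 with array weights and SLC75A1 with array weights and with the same median. With the replicate block the adjusted p was 0.0795 for SLC23A2 at 400 mg/kg/day, 0.0572 and 0.0515 for the slopes of SLC30A1 and SLC29A1, and 0.0535 for SLC11A2 against 3 mg/kg/day. Over all probe sets, array weights gave 252 calls in place of 161 at 400 mg/kg/day, 113 in place of 22 at 4 days and no trend gave 28 in place of 51 at 150 mg/kg/day and 3 in place of 22 at 4 days; at 4 days no filter gave 12 and quantile normalization 14, and at 150 mg/kg/day no filter gave 34 and the replicate block 30. Leaving out 1 animal gave 93 to 136 calls at 400 mg/kg/day, 13 to 44 at 150 mg/kg/day and 2 to 4 at 4 days. Scaling to the same median moved the split of calls at 400 mg/kg/day from 95 higher and 66 lower to 109 and 40, and that of slopes from 135 and 99 to 150 and 66. The number of animals limits the precision: the median SE of a difference was 0.32 on day 15 and 0.42 on day 4.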

Other observations

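Metallothioneins, the small proteins that bind zinc in cells, were measured by 7 probe sets, chosen after the zinc carriers' values were seen, and several of them can cross-hybridise within the family. Between 3 and 400 mg/kg/day 3 of the 7 fell and none rose, with a median log2 difference of -0.61 and a range from -1.70 to 0.12 (limma, adjusted over all probe sets, of which 2.26% were called lower and 1.92% higher). MT1G went from 1064 ± 543 to 339 ± 247 (SD, n = 4 each), a difference of -1.70 ± 0.46 (SE; adjusted p = 0.0364), and MT1H from 15332 ± 3674 to 8508 ± 1595, a difference of -0.84 ± 0.17 (adjusted p = 0.00499). At 150 mg/kg/day against vehicle 1 of the 7, MT1G, rose, by 2.86, where 0.677% of all probe sets were called, and the median was 0.59. At 400 mg/kg/day against vehicle none was called, with a median of -0.45.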
